A study of Mus musculus with 8 samples.

Results

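The 10 genes described here are the 4 fibroblast growth factor (FGF) receptor genes Fgfr1, Fgfr2, Fgfr3 and Fgfr4, and 6 genes whose transcription is known to follow FGF signalling, namely the Sprouty genes Spry1, Spry2 and Spry4, the phosphatase gene Dusp6 and the ETS factor genes Etv4 and Etv5. They are 10 of the 18194 genes measured, and were chosen by name. A probe set is a group of short probes that reads 1 transcript region, and 26 probe sets were annotated to exactly 1 of these genes. The brightest probe set, by its mean on the 8 arrays, stands for its gene, with the others beside it.

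The arrays measured RNA of the mandibular arch, the embryonic tissue of the lower jaw, at embryonic day 11.5 in C57BL/6J mice. The 4 mutants were Wnt1-Cre;Alk5 fl/fl, in which a Cre recombinase driven by Wnt1 regulatory sequence acts on the floxed Alk5 allele in the neural crest lineage, and the 4 controls were Alk5 fl/fl with no Cre driver named. Both groups thus carried the floxed allele, and an effect of Cre alone and an effect of losing Alk5 cannot be told apart here. Alk5 is another name for Tgfbr1, a receptor for TGF-beta. Sex was not determined, and the labels do not say whether each array came from its own embryo or litter, so a p-value here sets a difference against the spread of these 8 arrays, some of it perhaps technical.

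FGFs are secreted proteins that bind receptor tyrosine kinases together with heparan sulfate and signal through the RAS and ERK kinases. In the early jaw, FGF8 from the oral ectoderm acts on the neural crest mesenchyme below it, which depends on FGF receptors for survival, outgrowth and patterning. Cells that receive the signal switch on the transcription factors Etv4 and Etv5, and they also switch on inhibitors of the pathway, among them the Sprouty proteins and the ERK phosphatase Dusp6. Levels of these feedback genes are therefore widely used as a readout of FGF signalling.

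Values are log2 expression. A change is the mean of the mutants minus that of the controls in log2 units, fitted with limma, and its p-value was adjusted (Benjamini-Hochberg) over the 18194 genes. "Rose" and "fell" are kept for an adjusted p under 0.05. Medians of the arrays ran from 6.28 to 6.42. The values of mutant replicate 3 were compressed, with a standard deviation over all probe sets of 2.42, against 2.52 to 2.56 on the other arrays, and results that rest on it are given with and without it. The targeted gene, Tgfbr1, read 12.98 ± 0.0115 in mutants and 12.79 ± 0.0844 in controls (SD, n = 4 each) on its brightest probe set. The change was 0.19 (limma adjusted p = 0.232). The dimmer Tgfbr1 probe sets changed by 0.51 (1420893_a_at) and 0.30 (1420894_at), with overlap, and by 0.70 and 0.48 without mutant replicate 3. No Tgfbr1 probe set thus had a lower mean in mutants, and whether any of them lies in the deleted part is not known here. Defining genes of the tissue were bright, with Hand2, a transcription factor of the distal arch, at 12.08 ± 0.0557 in mutants and 12.35 ± 0.177 in controls. Of 8 arch mesenchyme markers 0 passed, 7 had a change below 0, and their mean level ran from 10.8 to 10.9 over the mutants and from 11.0 to 11.1 over the controls, without overlap. Of 10 macrophage markers 9 rose, and their mean level ran from 8.02 to 8.53 over the mutants and from 7.14 to 7.31 over the controls.

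None of the 10 genes passed the threshold (0 of 10), where 2.14% of all genes did. At an unadjusted limma p under 0.05 there were 4 of them (Fgfr1, Spry4, Etv5 and Etv4), all with lower means in mutants, against 13.5% of all genes. The median change of the 10 was -0.12, beside -0.01 over all genes, and 6 of 10 were below 0, where 52.0% of all genes were. Without mutant replicate 3 again 0 of 10 passed, where 3.40% of all genes did, and their median was -0.03. At an unadjusted limma p under 0.05 that fit again held 4, with Fgfr2, higher in mutants, in place of Etv4. The share of all genes at that limit was not worked out without mutant replicate 3. The groups did not overlap for 2 of the 10, Fgfr1 and Spry4, both lower in mutants, where 10.3% of all genes did not overlap in either direction and 7.02% did not overlap with the mutants lower.

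**Figure D1:**
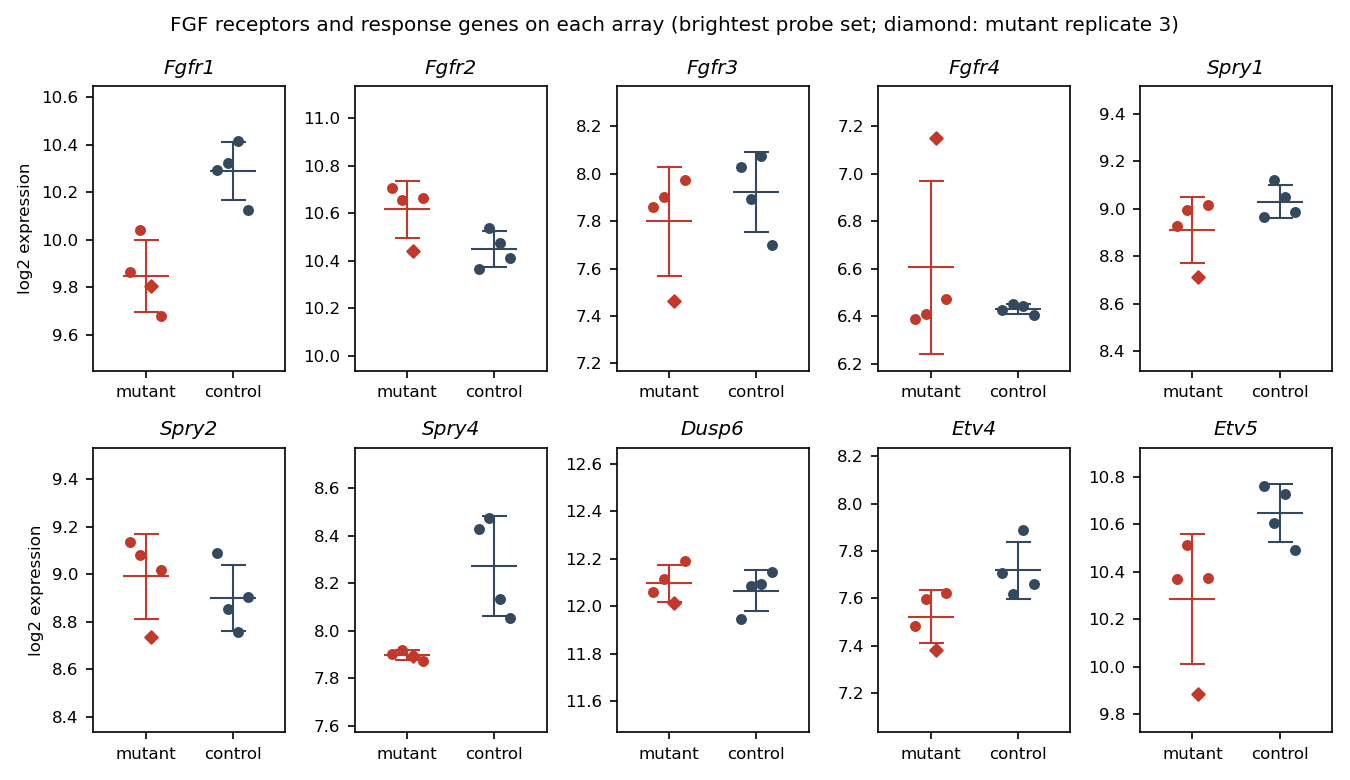
Log2 expression (vertical axes, each spanning the same log2 range) of the brightest probe set of each gene on the 4 mutant and 4 control arrays, with points for arrays, a bar for the mean and whiskers for the SD. For Fgfr1 and Spry4 all 4 mutants lie below all 4 controls, and the diamond of mutant replicate 3 lies apart for Fgfr4, where it reads 7.15, and for Etv5, where it reads 9.89.

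Among the receptors, Fgfr1, the main FGF receptor of the mesenchyme and known to be needed in neural crest cells for face and palate formation, came closest to the threshold. Its brightest probe set (1424050_s_at) read 9.86, 10.04, 9.81 and 9.68 on mutant arrays 1 to 4, against 10.30, 10.32, 10.42 and 10.13 on control arrays 1 to 4. All 4 mutants lay below the lowest control. The change was -0.44 ± 0.0961 (SE), or 1.36-fold lower in mutants, with a 95% interval of -0.66 to -0.23 and a limma adjusted p of 0.0511. The two-sided exact permutation p was 0.0286, the smallest that 70 relabelings can give. Without mutant replicate 3 the change was -0.43 ± 0.0991 (adjusted p = 0.0604). In whole-arch RNA, fewer cells of a type and less RNA per cell cannot be told apart, and the arch mesenchyme markers lay lower on the same mutant arrays. Their part in the Fgfr1 difference was not tested.

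The other Fgfr1 probe sets had the same direction. On 1436551_at the mutants read 7.43, 7.66, 7.34 and 7.11, against 7.76, 7.78, 7.89 and 7.72 in the controls, again without overlap, a change of -0.40 with an interval of -0.65 to -0.15. On 1425911_a_at the change was -0.29 (interval -0.62 to 0.03), and the groups overlapped because mutants 1 and 2, at 7.12 and 6.99, lay within the control range of 6.95 to 7.21. Mutant 3 read lowest there, at 6.42, and without it the change was -0.17, while that on 1436551_at was -0.39. The call depended on how the arrays were handled. Fgfr1 passed in 6 of 17 alternatives, at adjusted p-values of 0.0142 with array weights, 0.0256 with a variance trend and robust variances, 0.0356 over genes above the median level, 0.0364 without control 4, 0.0376 without mutant 2 and 0.0477 with arrays centred on their medians. It did not pass in the other 11, with adjusted p-values up to 0.507, reached when 1425911_a_at stood for the gene, and it stayed below 0 in all 17.

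Fgfr2, whose splice forms serve epithelium and mesenchyme with different ligands, had a higher mean in mutants. Its brightest probe set (1433489_s_at) read 10.71, 10.66, 10.44 and 10.66 in mutants, against 10.37, 10.54, 10.48 and 10.41 in controls. Mutants 1, 2 and 4 lay above every control and mutant 3 lay within the controls. The change was 0.17 ± 0.0809 (SE; interval -0.01 to 0.35; limma adjusted p = 0.416), and without mutant replicate 3 it was 0.23 ± 0.0573 (adjusted p = 0.0788). The other 2 probe sets gave 0.28 (1420847_a_at) and 0.26 (1443211_at), with intervals that spanned 0. Without mutant replicate 3 these changes were 0.42 and 0.13. The latter probe set was dim, with means of 5.03 in mutants and 4.77 in controls, and mutant 3 read highest on it, at 5.43. On 1420847_a_at the mutants read 8.29, 8.06, 7.66 and 8.27, against 7.65, 7.65, 7.93 and 7.93 in the controls, where again mutants 1, 2 and 4 were above every control. With array weights, which gave mutant 3 less weight, Fgfr2 passed (0.22, adjusted p = 0.0392). The probe sets were not assigned to splice forms here.

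Fgfr1 and Fgfr2 thus had mean differences of opposite sign, and neither passed. The log2 value of Fgfr2 minus that of Fgfr1 was 0.84, 0.62, 0.63 and 0.98 on mutant arrays 1 to 4, against 0.07, 0.22, 0.06 and 0.29 on control arrays 1 to 4. Since the probe sets differ in how they bind, only the shift between groups can be read, and it was 0.61, or 0.65 without mutant replicate 3. This pair was chosen after the values were seen and was not tested. Of 13 epithelial markers, which would go with the epithelial form of Fgfr2, 0 passed and 10 were below 0, with a mean level of 8.80 to 9.53 over mutants and 9.30 to 9.59 over controls. The 8.80 was mutant replicate 3, and the other mutants, at 9.37 to 9.53, lay within the control range. The median change of these markers was -0.18, and -0.06 without that array, where 9 were below 0.

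Fgfr3, best known for restraining cartilage growth, overlapped between groups. Its brightest probe set (1421841_at) read 7.86, 7.90, 7.46 and 7.97 in mutants, against 8.03, 7.89, 8.07 and 7.70 in controls, a change of -0.12 ± 0.127 (SE; interval -0.41 to 0.16; limma adjusted p = 0.735). Mutant 3 gave the lowest value, and without it the change was -0.01. The other probe set (1425796_a_at) changed by 0.0026 (interval -0.22 to 0.22).

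Fgfr4, known from muscle precursors in mouse and chick, had 5 probe sets, and all but the brightest had group means of 3.55 to 6.31, at or below about the middle of the arrays. The brightest (1427846_x_at) read 6.39, 6.41, 7.15 and 6.48 in mutants, against 6.43, 6.45, 6.44 and 6.41 in controls. The mean difference of 0.17 ± 0.156 (SE; interval -0.18 to 0.52; limma adjusted p = 0.697) came from mutant 3, without which it was -0.01 ± 0.0481 (adjusted p = 0.961). The suffix of this probe set marks probes that can bind other transcripts too. The other 4 probe sets changed by 0.07 to 0.10, with intervals that spanned 0. Of 9 markers of myogenic precursors 0 passed, and their mean level ran from 7.48 to 8.25 over the mutants and from 7.49 to 8.57 over the controls.

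The Sprouty proteins are induced by FGF and block the path to ERK. Spry4 had the more distinct difference of the 3 genes. Its brightest probe set (1445669_at) read 7.90, 7.92, 7.89 and 7.87 in mutants, against 8.43, 8.47, 8.14 and 8.05 in controls. The mutants were close together and all below the lowest control, while the controls spread, with replicates 1 and 2 above replicates 3 and 4. The change was -0.38 ± 0.101 (SE; interval -0.60 to -0.15), or 1.30-fold lower in mutants, with a limma adjusted p of 0.111 and a two-sided exact permutation p of 0.0286. Without mutant replicate 3 it was likewise -0.38 (adjusted p = 0.11).

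The other 3 Spry4 probe sets were dimmer and did not repeat the full difference. On 1440867_at the mutants read 6.43, 6.47, 6.55 and 6.48, against 6.59, 6.76, 6.56 and 6.51 in the controls, a change of -0.12, with mutants 1, 2 and 4 below every control. The others changed by -0.18 (1422021_at) and 0.08 (1422020_at), with intervals that spanned 0. Over the mean of the 4 probe sets Spry4 changed by -0.15 (adjusted p = 0.413). It passed in 1 of 17 alternatives, without control 4 (-0.45, adjusted p = 0.0495).

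Spry1 and Spry2 did not separate the groups. Spry1 (1415874_at) read 8.93, 8.99, 8.71 and 9.02 in mutants, against 8.97, 9.12, 9.05 and 8.99 in controls, a change of -0.12 ± 0.0847 (SE; interval -0.31 to 0.07; limma adjusted p = 0.623). Spry2 (1436584_at) read 9.13, 9.08, 8.73 and 9.02 in mutants, against 9.09, 8.85, 8.76 and 8.90 in controls, a change of 0.09 ± 0.107 (SE; interval -0.15 to 0.33; adjusted p = 0.769). For both genes mutant 3 was the lowest array of all 8, and without it the changes were -0.05 and 0.18. The dimmer Spry2 probe set (1421656_at) changed by 0.04, with mutants from 6.01 to 6.92 and controls from 6.28 to 6.65.

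Dusp6 encodes a cytoplasmic phosphatase that inactivates ERK and is among the most direct readouts of FGF signalling in embryos. It read 12.06, 12.11, 12.02 and 12.19 in mutants, against 11.94, 12.08, 12.09 and 12.14 in controls (1415834_at). The means of 12.10 ± 0.0762 in mutants and 12.07 ± 0.0848 in controls (SD, n = 4 each) differed by 0.03 ± 0.0737 (SE), less than the spread within either group. The interval was -0.14 to 0.19 and the limma adjusted p was 0.9. This was the narrowest interval of the 10 genes. Its sign turned without mutant 4 and without control 1.

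The promoters of Dusp6 and Spry2 are shown because ERK is known to switch on FGF response genes partly by releasing the repressor Capicua from DNA, and these 2 hold its binding word. The words searched on both strands were TGAATGAA, TGAATGGA, TCAATGAA and TCAATGGA, and each window shown held 1 match. RefSeq start sites (GRCm38.p6) matched 7 of the 10 genes with 9 windows, each the 250 bases before a start. Fgfr1, Spry4 and Etv4 had no window and were not searched. The word was in the windows of 2 genes, Dusp6 and Spry2, and in 3.19% of 32851 such windows of all genes. Capitals mark the word, which in both reads on the opposite strand, and each sequence runs 5′ to 3′ towards the start.
Dusp6, chr10:99262981-99263230, plus strand: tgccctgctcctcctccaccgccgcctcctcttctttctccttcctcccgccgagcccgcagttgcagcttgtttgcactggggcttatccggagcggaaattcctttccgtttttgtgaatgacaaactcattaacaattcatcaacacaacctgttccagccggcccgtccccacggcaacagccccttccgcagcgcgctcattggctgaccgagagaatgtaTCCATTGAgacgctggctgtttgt
Spry2, chr14:105896820-105897069, minus strand: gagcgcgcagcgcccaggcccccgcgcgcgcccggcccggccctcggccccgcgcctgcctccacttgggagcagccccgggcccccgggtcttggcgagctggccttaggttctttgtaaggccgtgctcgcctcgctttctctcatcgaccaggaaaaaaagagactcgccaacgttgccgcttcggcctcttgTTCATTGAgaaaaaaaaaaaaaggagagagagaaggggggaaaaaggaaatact
The word begins 24 bases before the start in Dusp6 and 54 bases before it in Spry2. A match describes the sequence and does not show that Capicua binds there in the arch.

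The ETS factors Etv4 and Etv5, which carry the FGF signal to target genes, had lower means in mutants without passing. Etv5 (1428142_at) read 10.37, 10.51, 9.89 and 10.37 in mutants, against 10.76, 10.61, 10.73 and 10.49 in controls. Mutants 1, 3 and 4 lay below every control, and mutant 2 lay just above the lowest of them. The change was -0.36 ± 0.132 (SE; interval -0.66 to -0.07), with a limma adjusted p of 0.256 and an exact permutation p of 0.0571. Without mutant replicate 3 it was -0.23 ± 0.0781 (adjusted p = 0.175), which is over 1.5 times smaller. Values of that array were compressed over all probe sets, with an SD of 2.42 against 2.52 to 2.56 on the others. It also had the lowest level of the 8 arrays for 6 of 8 marker lists. These were mesenchyme, epithelium, endothelium, erythroid cells, neurons and chondrogenic cells. The compression and the cell types cannot be told apart in these levels, and their parts in the Etv5 value were not tested.

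The other Etv5 probe sets changed by -0.31 (1450082_s_at) and -0.05 (1420998_at). On the first of them mutant 3 read 6.66, against 7.50 to 7.57 on the other mutants and 7.44 to 7.88 on the controls, so that without it the mutants lay within the control range. Without mutant 3 the changes were -0.09 on 1450082_s_at and 0.0004 on 1420998_at. Etv4 (1423232_at) read 7.48, 7.60, 7.38 and 7.62 in mutants, against 7.71, 7.62, 7.89 and 7.66 in controls. Mutants 1, 2 and 3 lay below every control, by a small margin for mutant 2. The change was -0.20 ± 0.0871 (SE; interval -0.39 to -0.00081; limma adjusted p = 0.369; exact permutation p = 0.0571), and -0.15 without mutant replicate 3. The other Etv4 probe set (1443381_at) read near 4 on every array and changed by 0.05.

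**Figure D2:**
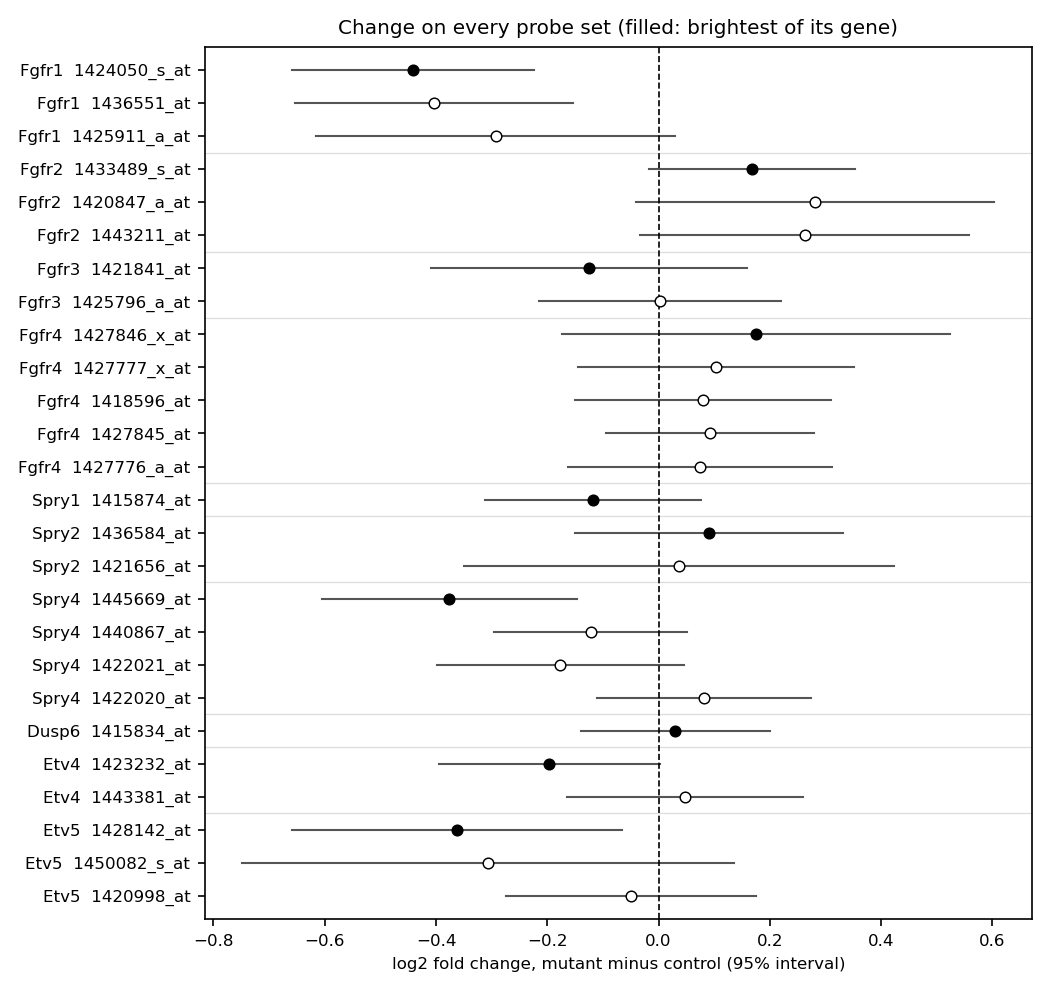
Log2 fold change, mutant minus control, of all 26 probe sets (rows), with 95% intervals from limma; filled points are the brightest probe set of each gene. With all 8 arrays, as plotted, all 3 Fgfr1 and all 3 Etv5 probe sets lie below 0. All 3 Fgfr2 and all 5 Fgfr4 probe sets lie above 0, and the Spry4 and Etv4 probe sets lie on both sides.

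Over the 26 probe sets, 12 had a change below 0 and 14 above, with a median of 0.02. Without mutant replicate 3, 14 were below 0 and the median was -0.01. With every probe set tested on its own, 0 of 26 passed, where 1.12% of all 34958 probe sets with 1 symbol did, and 4 had an unadjusted limma p under 0.05, where 11.0% of all probe sets did. The groups did not overlap on 3 of 26 probe sets, 11.5%, all with the mutants lower, where 8.22% of all probe sets did not overlap. The 3 were the pair of brighter Fgfr1 probe sets and the brightest of Spry4.

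**Figure D3:**
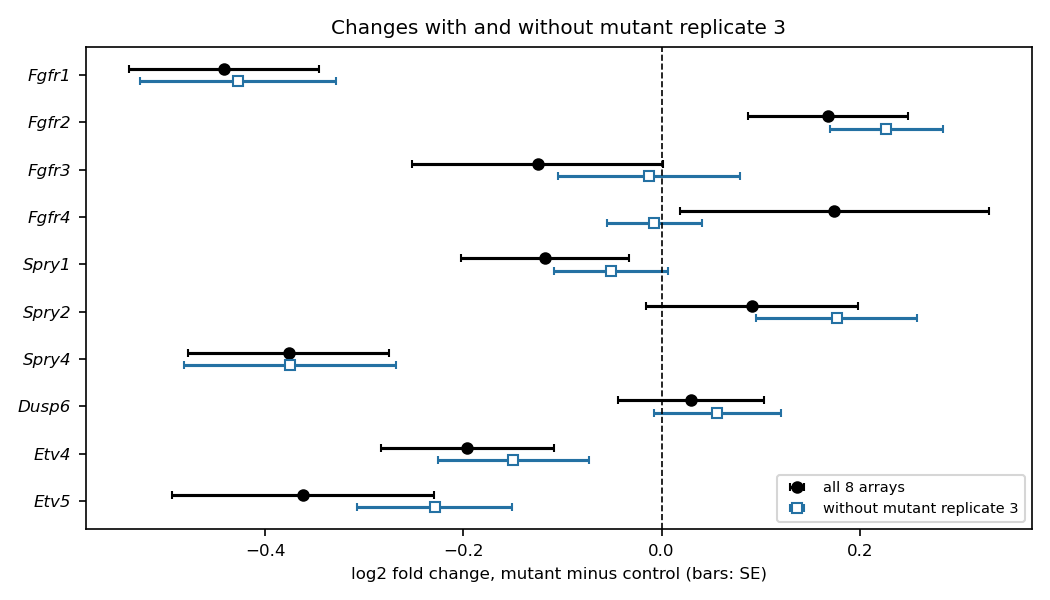
Log2 fold change, mutant minus control, of the 10 genes with all 8 arrays (filled) and without mutant replicate 3 (open); bars are the SE of the fit. Every gene but Etv5 and Fgfr4, Fgfr1 and Spry4 among them, moved by less than its SE with all arrays. Etv5 moved by about its SE, from -0.36 with all arrays to -0.23 without mutant replicate 3. Fgfr4 lies at 0.17 with all arrays and at -0.01 without that array.

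The genes whose pattern over the 8 arrays was most like that of Fgfr1, by the root mean square difference of values centred on each gene's mean, were Myo1d (0.0232 log2 units), Nrcam (0.0458) and Ccdc106 (0.049). Myo1d was at -0.45 (limma adjusted p = 0.0382), Nrcam at -0.44 (adjusted p = 0.049) and Ccdc106 at -0.38 (adjusted p = 0.118), so that 2 of the 3 passed. Myo1d lost its call in 9 of 16 alternatives and Nrcam in 12 of 16, and with probe sets averaged they were at -0.16 and -0.04. For Spry4 the nearest were Map1lc3a (0.0795), Drp2 (0.0806) and Olfml2b (0.0835), with changes of -0.25, -0.35 and -0.44, and 0 of these 3 passed. All of these neighbours were picked by likeness on the same arrays. Changes and calls close to those of Fgfr1 and Spry4 therefore follow from the choice and are no separate evidence.

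Other genes of the pathway were read from lists chosen with earlier results known. Among 22 genes of the FGF ligand family, 20 missed the threshold, 2 fell and 0 rose, and the median change was 0.05. Fgf18, a ligand of skeletal development, averaged 5.80 ± 0.0377 in mutants and 7.04 ± 0.391 in controls (SD, n = 4 each), 2.35-fold lower (limma adjusted p = 0.00761), and it passed in all 16 alternatives that measured it. Fgf13, an FGF-related protein that stays inside the cell, averaged 9.06 ± 0.227 in mutants and 10.15 ± 0.41 in controls, 2.13-fold lower (adjusted p = 0.0246), while its dimmer probe set changed by 0.02 and the mean of its probe sets by -0.53. Fgf13 missed the threshold when control 1, 2 or 3 or mutant 1 or 4 was left out, at adjusted p-values up to 0.0961. Of 9 neuron markers 1 fell, Tubb3, a tubulin of neurons (-1.67, adjusted p = 0.0126), and 7 were below 0. Their mean level ran from 6.82 to 7.09 over the mutants and from 7.13 to 7.49 over the controls, without overlap, and its part in the Fgf13 and Fgf18 falls was not tested. The same 2 ligand genes fell and 0 rose without mutant replicate 3. Fgf8, the ligand of the oral ectoderm, averaged 7.44 ± 0.585 in mutants and 7.10 ± 0.459 in controls (adjusted p = 0.692), a spread that leaves its change poorly determined.

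Of 8 co-receptor and receptor-like genes, 0 passed, at an adjusted p or at an unadjusted p under 0.05 in limma, and the median was 0.01. The smallest p-values belonged to Fgfrl1, a receptor-like protein without a kinase domain (0.13, adjusted p = 0.47), whose other probe set changed by -0.06, and to Flrt1, a membrane protein that binds FGF receptors (-0.15, adjusted p = 0.712). Of 16 measured adaptor, RAS and MAP kinase genes, 0 passed and the median was -0.03. At an unadjusted limma p under 0.05 there was 1 of them, where 13.5% of all genes were. That gene was Gab1, a docking protein of receptor tyrosine kinases, which averaged 10.54 in mutants and 10.85 in controls (-0.31 ± 0.114 SE, adjusted p = 0.27). Its other 2 probe sets changed by -0.46 and -0.30. Without mutant replicate 3 Gab1 was at -0.21 on the brightest probe set, and at -0.31 and -0.21 on the others. Nras, a RAS protein, was at 0.18 (adjusted p = 0.381), and without mutant replicate 3 it was at 0.25 and passed (adjusted p = 0.041). The dimmer Nras probe sets changed by 0.24 (1422687_at, without overlap) and 0.02 (1422688_a_at, with overlap). Without mutant replicate 3 they were at 0.27 and 0.11.

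Among 18 further feedback and response genes, 16 missed the threshold, 1 rose and 1 fell, and the median change was -0.04. Dusp9, a phosphatase that like Dusp6 acts on ERK in the cytoplasm, rose 2.16-fold. It averaged 10.79 ± 0.294 in mutants and 9.68 ± 0.326 in controls (limma adjusted p = 0.0189), all 3 of its probe sets were without overlap, and it missed the threshold when control 1, 2 or 3 or mutant 4 was left out (adjusted p up to 0.079). Spred3, a Sprouty-related inhibitor of RAS signalling, fell 1.54-fold, with 6.25 ± 0.283 in mutants and 6.86 ± 0.0823 in controls (adjusted p = 0.0449). Its call was lost in 10 of 16 alternatives, among them the replicate number as a block (0.0711), with adjusted p-values up to 0.154. The closest relatives of the Sprouty genes, Spred1 (-0.08) and Spred2 (-0.26), and the FGF antagonist gene Il17rd (-0.16) did not pass, at adjusted p-values of 0.693, 0.26 and 0.603. Over the 17 alternatives Spred1 ran from -0.29 to -0.03, Spred2 from -0.81 to -0.19 and Il17rd from -0.22 to -0.01. None of these genes passed in any alternative. With mutant replicate 3 left out, 2 rose and 1 fell, since the immediate-early gene Egr1 (0.57, adjusted p = 0.088 with all arrays) then passed beside Dusp9 and Spred3.

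Of 14 heparan sulfate synthesis and editing genes, 0 passed, 6 had an unadjusted limma p under 0.05 (13.5% of all genes did) and 12 were below 0 (52.0% of all genes were), with a median of -0.24. Sulf1, a sulfatase that trims heparan sulfate outside the cell and can dampen FGF binding, averaged 10.16 ± 0.279 in mutants and 10.70 ± 0.136 in controls (-0.54 ± 0.136 SE, adjusted p = 0.0894) without overlap, and its other bright probe set changed by -0.52. Hs3st1, a heparan sulfate sulfotransferase, was at -0.72 ± 0.213 (adjusted p = 0.151). Without mutant replicate 3, 11 of the 14 were below 0 and the median was -0.16. The arch mesenchyme markers were lower on the same arrays, and their part was not tested.

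Among 11 measured arch genes listed as known to depend on epithelial FGF8, 6 missed the threshold, 4 fell and 1 rose. Their median change was -0.21. Whether each of them depends on FGF8 at embryonic day 11.5 was not tested here. The falls were already known when the list was written and are no independent evidence of its direction. Pax9, a factor of teeth and palate, fell 3.96-fold, with 7.20 ± 0.443 in mutants and 9.19 ± 0.574 in controls (limma adjusted p = 0.0118). Its dimmer probe sets were at -0.44 (1421247_at, with overlap) and -1.22 (1421246_at), and the mean of the 3 was at -1.22, against -1.99 on the brightest. Lhx6 fell 3.18-fold (adjusted p = 0.00589) and Lhx8 fell 2.57-fold (adjusted p = 0.00323), LIM-homeobox genes of the oral mesenchyme, and the dim second probe set of Lhx6 (1422262_a_at) was at -0.55, with a mean of the pair of -1.11, against -1.67 on the brighter one. Pitx1, a homeobox gene of the jaw, fell 2.14-fold (adjusted p = 0.0031). Dlx2, a homeobox gene of arch mesenchyme, was the rise (0.56 ± 0.102 SE, adjusted p = 0.0253), and it lost its call in 6 of 17 alternatives, each with 1 array left out (adjusted p up to 0.104). Without mutant replicate 3 Dlx1 rose too (0.49, adjusted p = 0.025), beside the same 4 falls. Pax9 lost its call without mutant 4 (0.0517), whereas Lhx6, Lhx8 and Pitx1 passed in all 17 alternatives.

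**Figure D4:**
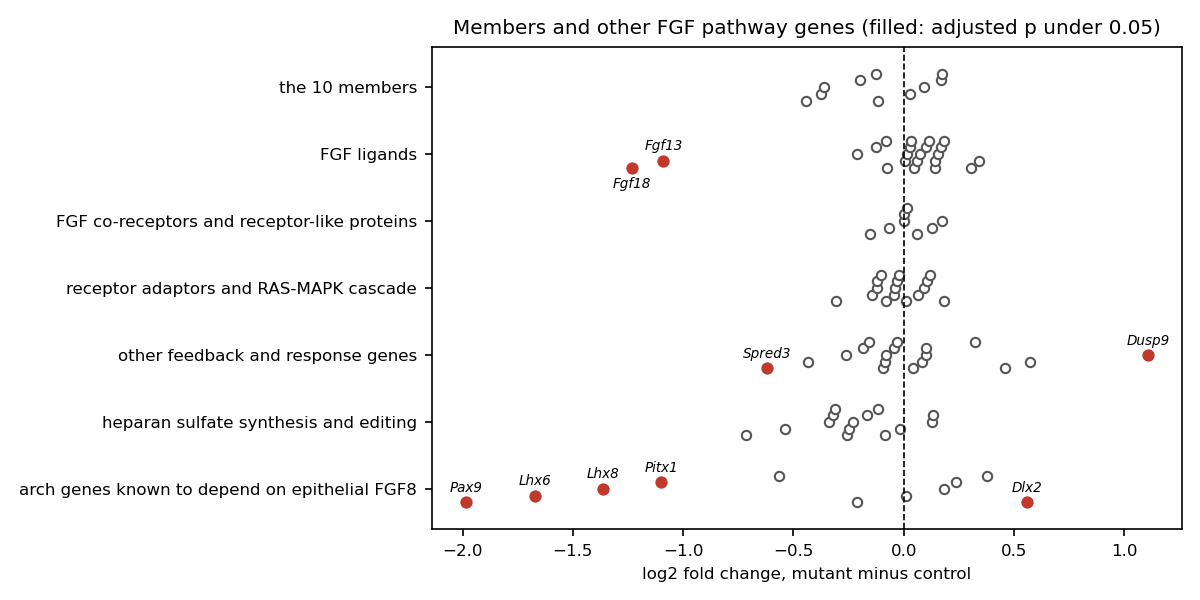
Log2 fold change, mutant minus control (horizontal axis), of the 10 genes (top row) and of the other FGF pathway lists, 1 point per gene; filled points have a limma adjusted p under 0.05 and are named. The 10 genes lie between -0.44 and 0.17 with none filled, while the filled points run from Pax9 at -1.99 to Dusp9 at 1.11.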

How the data were processed

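Per the labels' protocols, total RNA of the mandibular arch was biotin-labelled for Affymetrix arrays. RMA (version not given) was applied by the authors, per the submitters' processing notes, and the deposited values are taken as log2 expression from their range. RMA corrects background, equalizes arrays and summarizes probes, and it compresses changes of dim probe sets. Detection calls were not used here, and precision is limited by there being 4 arrays a group.

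Of 45101 probe sets, 34958 had 1 gene symbol, 932 several and 9211 none in the platform annotation, and 34754 of the first matched RefSeq (GRCm38.p6) by Entrez identifier. The brightest probe set stood for each of 18194 genes. The 4 mutant and 4 control arrays were compared with lmFit and eBayes of limma 3.58.1 in R 4.3.3, without covariates. A single gene was also tested by exact permutation. The steps were tested on simulated data. The members and lists were chosen with earlier results of these data known. Named were all 10 members, Tgfbr1, up to 4 passing genes per list by size or the 2 with the smallest p, and the 3 genes nearest in pattern to the 2 members with the largest change. Hand2, Tubb3, Fgf8, Egr1, Spred1, Spred2, Il17rd, Dlx1 and Dlx2 lie outside that rule and were named after their values were seen. Alternatives were a replicate block, other probe set choices, array weights, a dim-gene filter, renormalization, another variance model and leaving out each array. Other genes of the lists were not analysed here where no probe set matched.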

Additional observations from a re-analysis of the deposited data

Results flagged for a closer look

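Of 58 sets of 4 arrays checked, 1 for each probe set of the 10 genes and of Tgfbr1 in each group, 4 held an array far from the other 3, and chance gives about 1 in 20. Mutant replicate 3 was that array in 3 of the 4. For Fgfr4 (1427846_x_at) it read 7.15, against 6.39 to 6.48 on the other mutants. For Etv5 (1450082_s_at) it read 6.66, against 7.50 to 7.57. For Tgfbr1 (1420893_a_at) it read 6.51, against 7.22 to 7.33, so that without it this Tgfbr1 probe set is further above the controls, which averaged 6.58. The fourth was Etv4 (1443381_at), where mutant replicate 1 read 3.80, against 4.11 to 4.16 on the other mutants, on a probe set near the bottom of the scale.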

How the results depend on the processing

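The count of the 10 genes past the threshold was 0 under the replicate block, with probe sets averaged per gene, with each probe set on its own, with the most variable probe set and with quantile normalization again. Over genes above the median level it was 1, and that setting measured 8 of the 10 genes, without Fgfr4 and Etv4. It was 1 with arrays centred on their medians, 1 with a variance trend and robust variances and 2 with array weights. When each array was left out it ran from 0 to 2. Fgfr1 was among the genes called in each of these that called any, with Fgfr2 beside it under array weights and Spry4 beside it without control 4. The other 7 passed in none of the alternatives that measured them, 16 for Fgfr4 and Etv4 and 17 for the rest. The count over all genes, 390, was 616 with quantile normalization again and 1356 with array weights, and ran from 104 without control 3 to 618 without mutant 3. The labels give no pairing, the same-numbered arrays' deviations correlated at -0.12 to 0.41 and 1 of 4 mutants correlated best with its own number, so the replicate block was not preferred; it called 293 genes. Of the 10 genes, 8 kept their direction throughout. With an array left out, Fgfr4 ran from -0.0073 (without mutant 3) to 0.25, and Dusp6 from -0.011 (without control 1; -0.0025 without mutant 4) to 0.056. Of 30 other named genes 29 kept theirs, and Fgfrl1 turned to -0.061 with its more variable probe set. The median of the 10 ran from -0.17 to -0.03. With 4 arrays a group, the 95% intervals of the 10 genes were 0.33 to 0.70 log2 units wide, which limits what could pass.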
